A study of Rattus norvegicus with 2 samples.

Results

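The liver X receptors and the genes around them that move cholesterol out of cells were followed in rat esophageal tissue. The group comprised 8 genes, chosen by symbol: the receptors Nr1h3 and Nr1h2 and their known targets Abca1, Abcg1, Apoe, Srebf1, Mylip and Lpcat3. All 8 of the 14217 genes measured by name on the Affymetrix Rat Genome 230 2.0 array were found, on 17 of the 20826 probe sets that the platform annotation gave to a single gene. A probe set is the group of short oligonucleotides that reads out a transcript, and Abca1 had 4, Abcg1 3, Nr1h2, Srebf1, Lpcat3 and Apoe 2 each, and Nr1h3 and Mylip 1 each. The genes were picked with earlier results of these arrays known, so their differences are given as a description.

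Male Sprague-Dawley rats, an outbred laboratory stock, were bought at 5 to 6 weeks of age. In the OSU-HDAC42 group the animals received the histone deacetylase inhibitor OSU-HDAC42 by gavage in 7 doses of 50 mg/kg, 350 mg/kg in total, and in the vehicle group they received vehicle on the same schedule. Esophagi were removed on day 15, with 24 hours between the last dose and collection. Each group had 1 array, and the labels do not say whether it held RNA of 1 rat or of several. With no replicates, no value below carries an error between animals, and no difference was tested. In whole tissue, fewer cells of a type and less RNA per cell cannot be told apart.

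The liver X receptors are nuclear receptors that bind oxysterols, oxidised forms of cholesterol, and act on DNA as partners of the retinoid X receptors. When cholesterol is plentiful they switch on transporters that export it, a ligase that removes the LDL receptor, and genes of fatty acid and phospholipid synthesis. Without ligand they recruit corepressor complexes that contain the histone deacetylase HDAC3. LXRα, encoded by Nr1h3, is abundant in liver, fat, gut and macrophages, whereas LXRβ, encoded by Nr1h2, is found in most tissues.

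In the OSU-HDAC42 sample Abca1 and Nr1h3 were lower by more than 2-fold, Apoe was lower by 1.64-fold, and the other 5 genes differed by less than 1.5-fold in either direction on the probe set that represents them. The Abca1 difference was 7.98-fold on its brightest probe set but only 1.11-fold on the next. Among 10 probe sets that reached the expression floor, 8 had the lower intensity after OSU-HDAC42, 1 had the higher and 1 was equal. Over all probe sets that reached the floor, 49.3% were lower and 50.0% higher. The floor was an intensity of 49.1, the geometric mean of both samples at the middle probe set of the array, controls left out, and the higher of both samples had to reach it. All 8 genes had at least 1 such probe set. Of these 8 genes 2 were at least 2-fold lower and 0 at least 2-fold higher, against 3.17% lower and 1.88% higher among all 9560 genes above the floor. Because Abca1 was known to be among the lowest genes of the comparison when the group was drawn up, nothing is read from that count. The median of the 8 differences was -0.34 on the log2 scale, OSU-HDAC42 minus vehicle, beside -0.027 over all genes above the floor. Without Abca1 the median of the other 7 genes was -0.28.

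**Figure D1:**
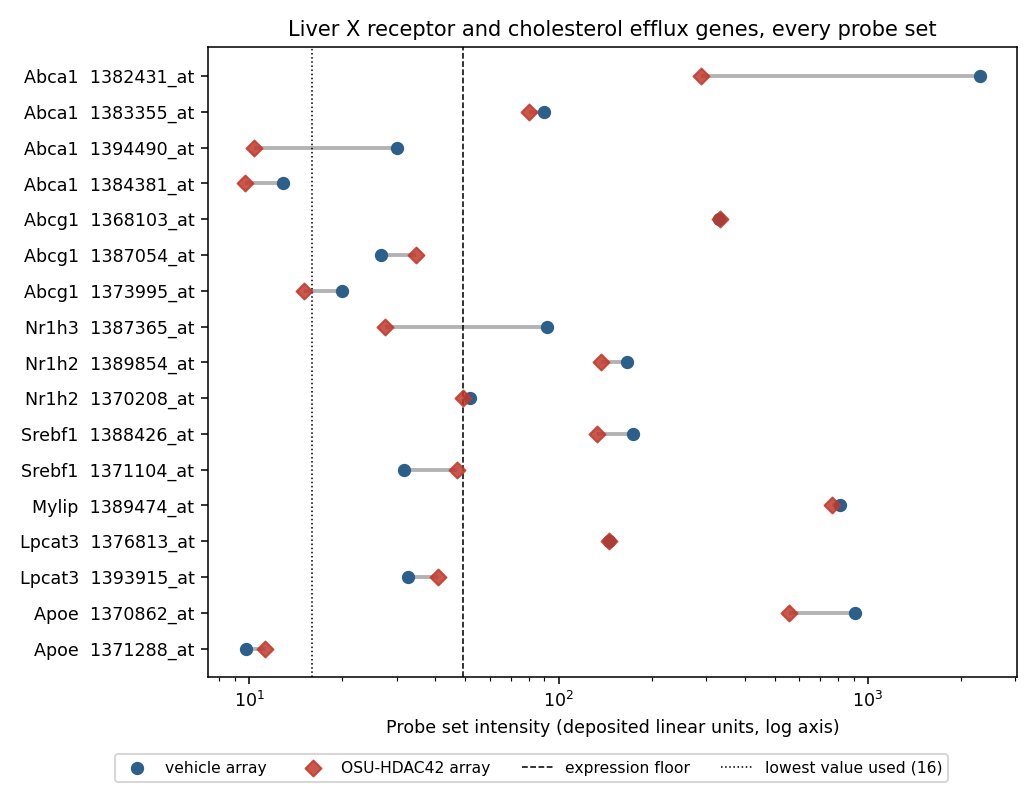
Intensity of every probe set of the 8 genes on the vehicle array (circles) and the OSU-HDAC42 array (diamonds), on a log axis. The dashed line marks the expression floor of 49.1 and the dotted line the value of 16 to which lower intensities were raised. Abca1 1382431_at runs from 2312 down to 289.8 and Nr1h3 from 92.1 down to 27.5, while most other pairs lie close together.

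The promoters of these genes are where a liver X receptor could act, and the 250 bases upstream of the start site are printed for the genes with a difference of 2-fold or more, from RefSeq on the GRCr8 assembly. Promoter sequences were matched for 7 of the 8 genes, the other being Abcg1. The receptor pair binds a direct repeat with a spacer of 4 bases, DR4, searched on both strands as a pair of AGGTCA half-sites in the same orientation. Capitals mark the half-sites of the closest match and, in Abca1, also the E-box CACGTG, a site of basic helix-loop-helix factors that does not overlap the repeat. The Abca1 window lies at chr5:72596474-72596723 on the minus strand and Nr1h3 at chr3:97623230-97623479 on the minus strand.
Abca1: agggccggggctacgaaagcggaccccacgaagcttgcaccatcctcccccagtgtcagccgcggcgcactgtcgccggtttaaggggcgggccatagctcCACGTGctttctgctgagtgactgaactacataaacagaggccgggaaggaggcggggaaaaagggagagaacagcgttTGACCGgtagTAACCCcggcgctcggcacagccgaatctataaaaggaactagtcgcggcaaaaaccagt
Nr1h3: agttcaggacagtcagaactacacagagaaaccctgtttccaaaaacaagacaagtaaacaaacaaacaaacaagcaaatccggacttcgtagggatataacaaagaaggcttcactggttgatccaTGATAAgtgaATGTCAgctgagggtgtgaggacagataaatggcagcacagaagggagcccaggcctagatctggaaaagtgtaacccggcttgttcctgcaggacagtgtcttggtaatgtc

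In Abca1 the closest match lay 70 to 55 bases before the start site and read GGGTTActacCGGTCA on the opposite strand, with 3 mismatches among the 12 fixed bases of the repeat. Of the 33469 promoters of 300 bases in the table, 21.9% held a match with up to 3 mismatches, and 2.93% one with up to 2. None of the 10 promoters of the 7 genes held a match with up to 2 mismatches, and Abca1 was the 1 promoter with a match at up to 3. The closest match in Nr1h3 had 4 mismatches, which 77.6% of all promoters equal or better. The E-box of Abca1 began 149 bases before the start site, and 6.42% of all promoters held one. No E-box was found in the other 9 promoters. A match is a description of letters, and a count of mismatches does not say whether a receptor binds. Binding to the Abca1 site was not tested in these data, and the share of promoters with a match as close does not bear on it. Liver X receptor elements known from human APOE lie in distant enhancers outside such a window.

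Of the receptors, Nr1h3 was lower and Nr1h2 differed little. The single Nr1h3 probe set, 1387365_at, had an intensity of 27.5 in the OSU-HDAC42 sample and 92.1 in the vehicle sample. The OSU-HDAC42 value lay below the expression floor and the vehicle value above it. The difference of -1.75 corresponds to 3.35-fold, and 37 of the 9560 genes above the floor were lower still, so that Nr1h3 ranked 38 from the lowest. Since the gene passed the floor through the vehicle sample alone, where it was high, its rank is a description. With 1 probe set, the array gives no second reading of Nr1h3.

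Nr1h2 was read by both of its probe sets above the floor. Probe set 1389854_at stood at 137 in the OSU-HDAC42 sample and 166 in the vehicle sample, a difference of -0.28. Probe set 1370208_at stood at 49.0 and 51.7, a difference of -0.075. Both pointed the same way, and their range of 0.21 was below the median range of 0.26 over the 2126 genes with several probe sets above the floor. Neither difference exceeded the within-gene SD of probe sets, which was 0.29.

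The DNA-binding partner of both receptors is a retinoid X receptor. Of the 3 retinoid X receptor genes, Rxrb was the only one above the floor, at 271 in the OSU-HDAC42 sample and 415 in the vehicle sample, 1.53-fold lower. Rxra stood at 16.4 and 17.1, and Rxrg was under 16 in both samples.

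Corepressors that hold the unliganded receptors inactive were measured for 6 of the 7 genes listed, all above the floor, and none differed by 2-fold. Of these, 4 were higher and 2 lower, with a median of 0.18. Hdac3, the deacetylase of the NCoR complex, stood at 224 in the OSU-HDAC42 sample and 177 in the vehicle sample. Gps2, a subunit of that complex, stood at 106 and 142, and Nrip1, also known as RIP140, at 923 and 1252. Coactivators were above the floor for 6 of 9 genes, 1 higher and 5 lower, with a median of -0.15. Over all 9 genes the median was -0.039. Ncoa3 was the higher gene, at 283 against 191, whereas Ncoa6 stood at 362 against 538 and the acetyltransferase gene Ep300 at 1287 against 1691.

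Enzymes that make or remove oxysterol ligands were above the floor for 4 of the 7 genes measured, 1 higher and 3 lower, with a median of -0.43. Over all 7 genes the median was -0.11, so its size depended on the floor. Ch25h passed the floor through the OSU-HDAC42 sample alone and Cyp39a1 through the vehicle sample alone. Ch25h, which makes 25-hydroxycholesterol, was higher at 65.8 against 46.6. Cyp27a1, which makes 27-hydroxycholesterol, was lower at 57.8 against 81.8. Cyp39a1, an oxysterol hydroxylase, stood at 39.7 against 54.2, and Cyp7b1, which breaks oxysterols down, was under 16 in both samples. None of the 4 reached 2-fold.

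Abca1 passes cholesterol and phospholipid to lipid-poor apolipoprotein A-I, the entry step of HDL formation. Its 4 probe sets gave different readings. Probe set 1382431_at had an intensity of 289.8 in the OSU-HDAC42 sample and 2312 in the vehicle sample, a difference of -3.00 or 7.98-fold lower. Probe set 1383355_at had intensities of 80.6 and 89.6, a difference of -0.15 or 1.11-fold lower. These are the 2 readings above the floor, and only the first separates the samples by more than 2-fold.

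The other pair of Abca1 probe sets was dim. Probe set 1394490_at stood at 10.3 in the OSU-HDAC42 sample and 30.0 in the vehicle sample, both below the floor. With the lower value raised to 16, it was at least 1.88-fold lower. Probe set 1384381_at stood at 9.67 and 12.8, both under 16, where no difference can be measured. All 4 deposited values were lower in the OSU-HDAC42 sample, but their sizes ranged from 1.11-fold to 7.98-fold where a size could be given.

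The disagreement between the bright Abca1 probe sets was large for this array pair. Their differences lay 2.84 apart on the log2 scale, against a median range of 0.26 and a 95th percentile of 0.89 over the 2126 genes with several probe sets above the floor. Larger ranges were found for 2 genes, Harbi1 at 5.60 and the class II histocompatibility gene RT1-Ba at 3.21. The value of Abca1 thus depends on which probe set is read: -3.00 on the brightest and -0.15 on the second. The median of all 4 was -0.53 with values under 16 raised, which sets 1 of them to 0 and another to its bound, and -0.97 from the deposited values.

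**Figure D2:**
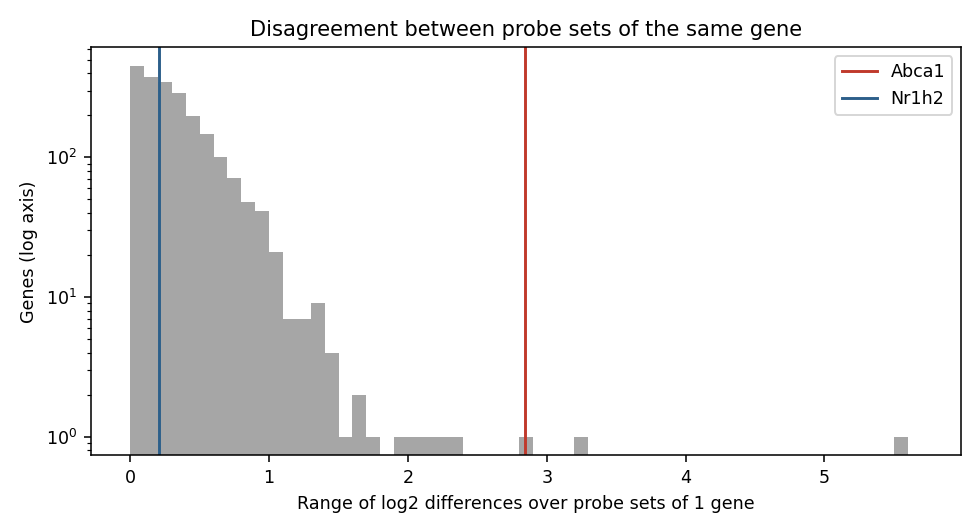
Histogram of the range of log2 differences over the probe sets of 1 gene, for the 2126 genes with several probe sets above the floor, with the number of genes on a log axis. Vertical lines mark Abca1 at 2.84 and Nr1h2 at 0.21, and only 2 genes lie beyond Abca1.

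On its brightest probe set Abca1 ranked 2 from the lowest among the 9560 genes above the floor. Of the 2462 genes with an intensity of at least 1000 on either array, a limit chosen after the value was seen, none differed by more. The next lowest differed by -1.90, or 3.73-fold. Abca1 reached that limit through the vehicle sample alone, where it was high, so its place among these genes is a description. The differences of those 2462 genes had an SD of 0.34, and 19 of them were at least 2-fold lower.

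Over both arrays the genes outside the group with a log2 difference nearest to that of the brightest Abca1 probe set were Pcp4 at -3.00, Ky at -2.63, Aqp4 at -2.36 and Smtnl1 at -2.31. Pcp4, a calmodulin-binding protein, stood at 26.8 in the OSU-HDAC42 sample and 214 in the vehicle sample. Ky, Aqp4 and Smtnl1 are known from skeletal muscle. Pcp4, Ky and Aqp4 passed the floor through the vehicle sample alone. Another Ky probe set, below the floor, differed by -0.84, and the other Aqp4 probe sets were under 16 in both samples. The likeness rests on a single difference between 2 arrays and says nothing of shared control.

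Abcg1, the transporter that passes cholesterol to mature HDL, showed no comparable difference. Its probe set above the floor, 1368103_at, stood at 332 in the OSU-HDAC42 sample and 330.3 in the vehicle sample, a difference of 0.0087. The dimmer probe sets, both below the floor, pointed in opposite directions: 1387054_at stood at 34.7 and 26.7, and 1373995_at at 15.0 and 19.9. Among relatives of these transporters, 4 of 8 measured genes reached the floor, of which 2 were higher and 2 lower. Abca2, a lipid transporter of endolysosomes, stood at 39.6 against 91.4, 2.31-fold lower, and was the 1 gene of that list past 2-fold. It passed the floor through the vehicle sample alone. Abca3, known as the lipid transporter of lung surfactant, read 365 against 723 by the brighter of its probe sets, 1.98-fold lower, and 77.6 against 121 by the other. Abca7 was higher at 71.8 against 46.5 and passed the floor through the OSU-HDAC42 sample alone.

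Apoe encodes apolipoprotein E, which carries exported cholesterol. Probe set 1370862_at stood at 555 in the OSU-HDAC42 sample and 911 in the vehicle sample, a difference of -0.72 or 1.64-fold lower, and 7.14% of the genes above the floor were lower still. The other Apoe probe set, 1371288_at, stood at 11.3 and 9.77, under 16 in both samples. Only 1 reading of Apoe was therefore measurable.

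Srebf1 encodes SREBP-1, the transcription factor of fatty acid synthesis, and its SREBP-1c form is induced by the liver X receptors. Its probe sets disagreed in direction. Probe set 1388426_at stood at 133 in the OSU-HDAC42 sample and 174 in the vehicle sample, a difference of -0.39. Probe set 1371104_at, just below the floor, stood at 47.0 and 31.7, a difference of 0.57. The median of both was 0.089, so that no direction can be given for Srebf1.

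The remaining targets were close to equal. Mylip, also called IDOL, is the ubiquitin ligase that sends the LDL receptor to degradation, and it stood at 768 in the OSU-HDAC42 sample and 813 in the vehicle sample. Lpcat3, which builds polyunsaturated phospholipids, stood at 146 in both samples on probe set 1376813_at, where the deposited values were equal, as they were for 963 of the 31042 non-control probe sets. Its dimmer probe set 1393915_at, below the floor, stood at 40.7 and 32.5. Neither gene differed by more than the within-gene SD of 0.29 on its probe set above the floor.

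**Figure D3:**
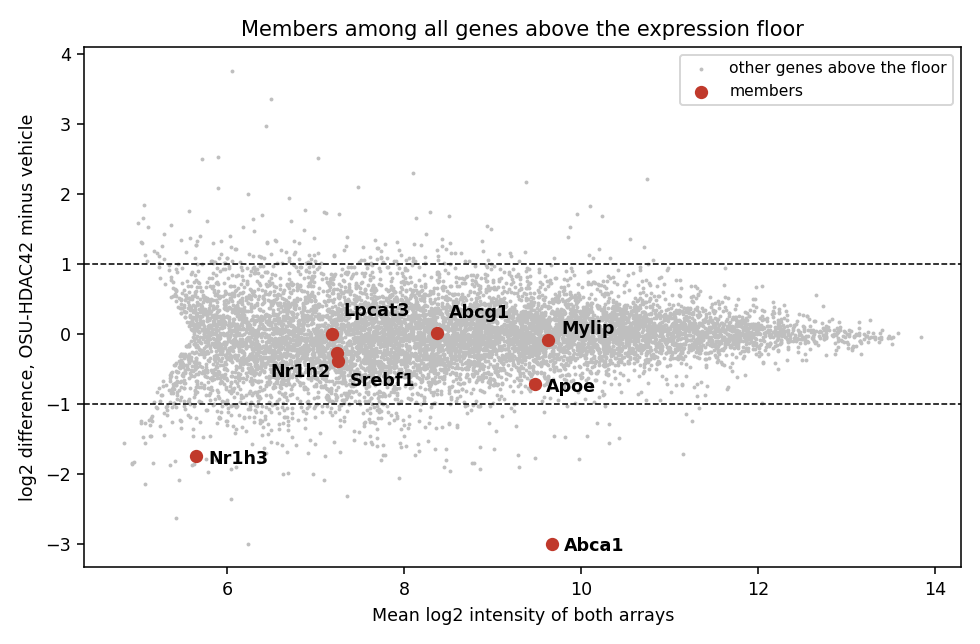
Mean log2 intensity of both arrays (horizontal) against the log2 difference, OSU-HDAC42 minus vehicle (vertical), for all 9560 genes above the floor (grey) and the 8 genes of the group (red), each by its brightest probe set. Dashed lines mark 2-fold. Abca1 at -3.00 lies far below other genes of similar intensity, Nr1h3 at -1.75 lies among dimmer genes, and the other 6 lie within 2-fold.

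Further genes of the pathway, in 9 lists with the receptors' partners, ligands and related transporters, gave 77 measured genes outside the group, 55 of them above the floor. Of these, 27 were higher and 28 lower, with a median of -0.0064. At least 2-fold differences were found for 2 higher genes (3.64%, against 1.88% of all genes) and 1 lower gene (1.82%, against 3.17%). The lower gene is Abca2, and these shares rest on 1 to 2 genes and lie near those of the whole array.

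Other targets of the liver X receptors were split evenly. Of 20 measured genes 12 reached the floor, with 6 higher, 6 lower and a median of -0.0025. Scd, the desaturase that makes monounsaturated fatty acids, was 2.40-fold higher at 454 in the OSU-HDAC42 sample and 189 in the vehicle sample. Pnpla3, a lipid droplet protein, was lower at 159 against 294 by its brightest probe set, and another read 49.9 against 151, a difference of -1.60. Acaca, the carboxylase that opens fatty acid synthesis, stood at 563 against 842. Its dimmer probe set, below the floor, pointed the other way at 23.3 against 17.3. Pltp, the phospholipid transfer protein of HDL, stood at 332 against 238. Abcg8 and Cyp7a1, whose products act mainly in liver and gut, were under 16 in both samples.

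Genes for the uptake of lipoprotein cholesterol were higher in all 4 cases above the floor, with a median of 0.50 and none at 2-fold. Of all genes above the floor, 46.7% were higher. Cd36, measured but below the floor, was lower, at 16.4 in the OSU-HDAC42 sample and 22.3 in the vehicle sample. Scarb1, the HDL receptor that also lets cholesterol leave the cell, stood at 491 in the OSU-HDAC42 sample and 268 in the vehicle sample, 1.83-fold higher, and its dimmer probe set, below the floor, stood at 37.0 against 17.4. The scavenging receptor gene Lrp1 stood at 970.5 against 689. Of the receptors that MYLIP degrades, Lrp8 stood at 52.4 against 36.6 and Vldlr, nearly equal, at 218 against 217. Lrp8 passed the floor through the OSU-HDAC42 sample alone.

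Partners of efflux and storage were above the floor for 9 of 10 measured genes, 5 higher and 4 lower, with a median of 0.070. With the floor at the 75th percentile of intensities the list median was -0.22, so no direction is given for the list. Soat1, which esterifies free cholesterol for storage, stood at 134 in the OSU-HDAC42 sample and 61.1 in the vehicle sample, 2.19-fold higher, with its other probe set under 16 in both. Lcat, which esterifies cholesterol on HDL, was 1.85-fold lower at 155 against 287. Cav1, the caveolar protein caveolin-1, was higher on all 3 of its probe sets, by 0.79, 1.17 and 0.86. Apoa1, the acceptor of Abca1 cholesterol, stood at 25.9 against 20.6, below the floor.

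**Figure D4:**
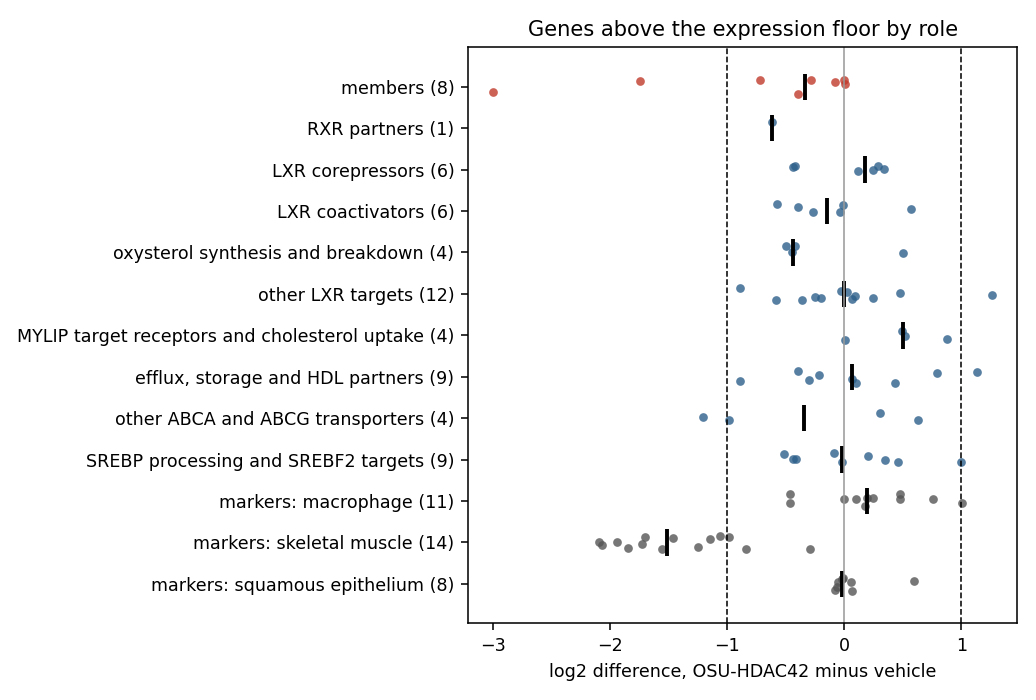
log2 difference, OSU-HDAC42 minus vehicle, of each gene above the floor, by role, with the number of genes in brackets. Points are genes, black bars are medians and dashed lines mark 2-fold. Medians of the pathway lists with several genes run from -0.43 for oxysterol enzymes and -0.34 for other ABC transporters to 0.50 for uptake genes, and all 14 skeletal muscle markers lie to the left of 0. Over all measured genes, floor or not, the medians of the oxysterol enzymes and other ABC transporters were -0.11 and 0.

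Cell type markers were read beside these values, because macrophages and fat express the receptors and their targets. The squamous lining was present in both samples: its 8 measured markers were all above the floor, 3 higher and 5 lower, with a summed intensity of 59055 in the OSU-HDAC42 sample and 59771 in the vehicle sample. Of 12 macrophage markers 11 were above the floor, 8 higher, 2 lower and 1 equal, and their summed intensity was 2322 against 2045. Mrc1 stood at 519 against 259, Cd163 at 207 against 123, C1qa at 168 against 121 and Cd68 at 219.5 in both, while Lyz2 was lower at 439.9 against 604 and Cd14 at 106 against 147. The part of macrophages in the values of Nr1h3, Abca1 and Apoe was not tested. The adipocyte genes Adipoq, Lep, Plin1 and Cidec were under 16 in both samples, and Fabp4, which endothelium also expresses, stood at 61.2 against 99.4. Of the hepatocyte genes, Alb and Apob were under 16 in both samples, Ttr stood at 24.6 against 20.8 and Serpina1 at 36.4 against 49.3.

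Skeletal muscle markers were lower in all 14 of 14 cases, 11 of them by 2-fold or more. Of all genes above the floor, 52.8% were lower, and 3.17% by at least 2-fold. The summed intensity of the muscle markers was 12854 in the OSU-HDAC42 sample against 26691 in the vehicle sample. Actn3 stood at 66.6 against 283, Ampd1 at 121 against 505 and Ttn at 237 against 906. Their part in the lower values of Abca1, Nr1h3 and Apoe was not tested.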

How the data were processed

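Probe set values of 2 arrays, 1 per group, were used as deposited. The authors' values are intensities on a linear scale, which was read from the values, from 4.54 to 14438 in the OSU-HDAC42 sample and from 4.48 to 14947 in the vehicle sample outside 57 control probe sets. The submitters' processing notes list GCOS and RMA with no version, and how the arrays were scaled to each other is not given in the sources used here. The labels name Trizol for RNA extraction, the series text a column kit.

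Intensities under 16 were raised to 16 (28.4% and 29.2% of probe sets), log2 was taken, and no further normalization was applied. A gene was represented by its probe set with the highest mean log2 intensity. Probe sets with several gene symbols (436) or none (9780) were not used, and none of the former held a member. The number of arrays limits the precision. The members, lists and limits were chosen with earlier results of these data known. The text names all 8 members with every probe set, up to 3 genes of each list, those above the floor with the largest differences, and the 4 genes nearest to Abca1 in difference. Further genes named from the lists, the limit of 1000, Harbi1 and RT1-Ba were chosen after their values were seen. Of 168 list memberships outside the group, 143 were measured. Scaling, raised values, probe set choice, floor and threshold were varied. Calculations used Python 3.11.15, NumPy 2.4.6, pandas 2.3.3 and statsmodels 0.14.6 and were tested on simulated data.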

Additional observations from a re-analysis of the deposited data

How the results depend on the processing

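The differences of Abca1 on its brightest probe set (-3.02 to -2.97) and of Nr1h3 (-1.75 to -1.52) kept their direction and stayed beyond 2-fold. This held with no value raised, with values under 32 raised to 32, after centring each array, after quantile normalization and after removing a lowess trend. Neither raising rule could alter this Abca1 probe set, whose intensities exceeded 32. Leaving values unraised could not alter Nr1h3, whose intensities exceeded 16. Centring moves all probe sets of an array by the same amount. With the floor at the 75th percentile Nr1h3, Nr1h2, Srebf1 and Lpcat3 fell below it. The median of the members left, Abca1, Apoe, Mylip and Abcg1, was -0.40. Abca1 as a gene was -0.53 as the median over its probe sets, where raising to 16 fixed 1 of them at 0 and another at a bound, and -0.15 from its second brightest probe set, an alternative chosen after seeing the data. Under the same changes the median of the group was -0.13 and -0.22. Srebf1 turned from -0.39 to 0.089, and Apoe was -0.36, as medians over probe sets, the latter because its other probe set was under 16. By construction, the counts of higher and lower genes were 75 and 119 with the floor at the 75th percentile, 725 and 1042 at 1.5-fold, and 31 and 57 at 3-fold. The number of member promoters with a DR4 match was 0 with up to 2 mismatches and 1 with up to 3. With that higher floor the medians of the efflux partners, the endothelial markers and the other receptor targets had the opposite sign, at -0.22, 0.32 and 0.066. In all, 253 alternative values stayed close to the main ones and 26 did not. Some of the 253 could not move, such as intensities above 32 when the raised limit was changed. Genes also repeat the values of their brightest probe sets, so the tally does not measure stability. Close meant within 1.5 times for a count, within the within-gene SD of probe sets of 0.29 for a gene, and within that SD divided by the square root of the number of genes for a list median. The main list medians used for this covered all measured genes, as did the alternatives except at the higher floor. List medians given in the sections above cover only genes above the floor. Closeness was therefore not judged for them where a list had genes below the floor. For changes without a stated construction the cause was not tested. No paired analysis was possible because there was a single array on each side, and for the same reason none could be left out.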

Other observations

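Cholesterol sensing by the SREBP pathway, the counterpart of the liver X receptors, was split. Each of the 9 measured genes reached the floor, with 4 higher, 5 lower, a median of -0.022 and none at 2-fold. Stard4, a sterol carrier protein, was higher on both of its probe sets above the floor, at 152 in the OSU-HDAC42 sample against 76.3 in the vehicle sample and at 127 against 64.9. Insig1, which retains the SREBPs in the endoplasmic reticulum, stood at 3612 against 2631. Mbtps1, the site-1 protease that cleaves them, stood at 295 against 421. Srebf2, the main regulator of cholesterol synthesis, stood at 1514 against 1318.

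Other cell types of the esophageal wall were read by the same rule. Smooth muscle markers were higher in 7 of 7 cases (median 0.62), with Synpo2 at 851 against 301, Tagln at 2573 against 1089 and Actg2 at 3157 against 1975. On another probe set Synpo2 was lower, at 319 against 434. Fibroblast markers were higher in 7 of 7 cases (median 0.50), with Thy1 at 311 against 146, Pdgfra at 2793 against 1456 and Dcn at 2223 against 1310.3. With each gene taken as the median over its probe sets, the fibroblast median was 0.29. Of all genes above the floor, 46.7% were higher. Endothelial markers were higher in 2 and lower in 5 cases (median -0.25), with Vwf at 44.3 against 85.8, Ramp2 at 124 against 231 and Egfl7 at 80.5 against 139, whereas Pecam1 was higher at 1393 against 1119 and Kdr at 657 against 519.8. The summed intensity of the list was 2792 against 2675, and with the floor at the 75th percentile its median was 0.32.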
